A study of Mus musculus with 60 samples.

Results

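Chromatin of mouse lumbar dorsal root ganglia was searched for places that were open after a spinal cord axotomy alone and that also carried histone acetylation there. The peak lists of the assay for transposase-accessible chromatin with sequencing (ATAC-seq) of 4 surgeries were merged wherever peaks overlapped by at least 1 bp, which gave 368411 regions. A region was kept where it held a peak in the list of the dorsal column axotomy (DCA) and in no other ATAC list, and where it overlapped a DCA peak of H3K9ac or H3K27ac. This left 4697 regions, 1.27% of all merged regions. The same rule applied to laminectomy (Lam) gave 3581 regions, or 0.972%, which served as the background. The regions were selected on their ATAC presence in each list and their acetylation in DCA, and these values are given below as a description only.

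L4-L6 ganglia were taken 24 hours after surgery from C57BL/6 mice aged 6 to 8 weeks. DCA cut the dorsal columns of the spinal cord, Lam opened the vertebra without cutting axons, SNA cut the sciatic nerve, and Sham was the operation on that nerve without the cut. Each of the 4 surgeries had 2 ChIP-seq samples for H3K9ac, H3K27ac and H3K27me3, each pooled from 10 mice, and 3 ATAC-seq samples of 1 mouse each. The authors deposited 1 peak list per assay and surgery with the replicates pooled, 16 lists in all, so there is no error between animals and no test between surgeries. The lists hold only peaks above the authors' threshold, and absence from a list does not show absence of signal. Whole ganglia were used, so fewer cells of a type and less signal per cell cannot be told apart.

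Acetylation of lysines on histone H3 marks active promoters and enhancers. H3K27ac is laid down mainly by the acetyltransferases p300 and CBP, and H3K9ac largely by GCN5 and PCAF, whereas H3K27me3 is the mark of Polycomb repression. Open chromatin lets transcription factors bind, and active enhancers are usually both open and flanked by acetylated nucleosomes. The central axons of these sensory neurons run in the dorsal columns and regenerate poorly, while their peripheral axons in the sciatic nerve regrow.

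The 16 lists held 43803 to 174605 peaks each. The ATAC lists of DCA and Lam were close in length, at 164365 and 158160 peaks. The H3K9ac list was 1.77 times as long in DCA as in Lam, and the H3K27ac list 0.691 times as long. At the gene ends of 24 sensory neuron genes, the DCA ATAC list had a peak at 21, the H3K9ac list at 8 and the H3K27ac list at 5. For 20 genes of satellite glia and Schwann cells the same counts were 15, 18 and 12, for 20 macrophage genes 14, 7 and 3, and for 20 endothelial and fibroblast genes 13, 12 and 5. Most genes of each of these lists thus had a DCA ATAC peak at an end, so the ATAC counts do not single out a cell type. The same share over all protein-coding genes is not given here. The glial genes carried a listed acetylation peak more often than the sensory neuron genes.

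Sequence was at hand for regions that met the start of a protein-coding gene. A window from 250 bases before to 50 bases after each start was read from RefSeq (GRCm38.p6, the same build as mm10), which covered 17492 protein-coding genes with 21263 windows. The DCA-only acetylated open regions met 56 windows of 55 genes, and the Lam-only ones 48 windows of 45 genes. The 8 stretches below lie before the start and inside such a region, and are printed 5′ to 3′ on the gene's strand. They span at least 100 bases and were picked after their values were seen. The regions at Cers2, Cd274 and Vps45 had acetylation in all 6 lists of the other surgeries. Those at Klhl35, Cfap161 and Gpr179 had it in DCA alone. Ifitm3 and Mef2c were picked for a match to the AP-1 letters TGANTCA inside the printed stretch. Capitals mark a match to any of the 12 motifs searched.
Cers2: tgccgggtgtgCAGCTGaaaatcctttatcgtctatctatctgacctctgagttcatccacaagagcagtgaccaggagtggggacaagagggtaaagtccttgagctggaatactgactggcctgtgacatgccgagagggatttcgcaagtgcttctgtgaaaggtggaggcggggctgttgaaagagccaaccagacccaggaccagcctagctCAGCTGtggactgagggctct
Cd274: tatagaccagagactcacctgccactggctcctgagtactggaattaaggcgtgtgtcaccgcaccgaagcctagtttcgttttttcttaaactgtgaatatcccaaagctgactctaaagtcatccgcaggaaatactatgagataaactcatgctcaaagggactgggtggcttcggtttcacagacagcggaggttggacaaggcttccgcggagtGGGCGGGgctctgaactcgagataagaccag
Vps45: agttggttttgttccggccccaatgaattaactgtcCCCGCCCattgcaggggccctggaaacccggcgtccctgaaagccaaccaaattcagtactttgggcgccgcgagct
Klhl35: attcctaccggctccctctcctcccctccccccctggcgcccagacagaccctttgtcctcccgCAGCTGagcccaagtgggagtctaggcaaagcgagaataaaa
Cfap161: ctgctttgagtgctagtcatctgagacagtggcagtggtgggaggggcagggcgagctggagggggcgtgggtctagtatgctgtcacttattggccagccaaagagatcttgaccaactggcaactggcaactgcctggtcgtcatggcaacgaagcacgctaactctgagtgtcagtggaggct
Gpr179: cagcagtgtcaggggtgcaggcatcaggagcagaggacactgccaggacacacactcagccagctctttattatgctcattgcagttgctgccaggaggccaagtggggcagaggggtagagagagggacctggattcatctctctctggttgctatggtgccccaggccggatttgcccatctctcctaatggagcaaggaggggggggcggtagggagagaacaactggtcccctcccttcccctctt
Ifitm3: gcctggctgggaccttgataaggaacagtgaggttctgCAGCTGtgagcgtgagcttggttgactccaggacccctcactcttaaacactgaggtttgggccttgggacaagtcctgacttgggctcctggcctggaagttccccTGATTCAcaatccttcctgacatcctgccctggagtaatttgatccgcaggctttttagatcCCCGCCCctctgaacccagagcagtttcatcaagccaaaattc
Mef2c: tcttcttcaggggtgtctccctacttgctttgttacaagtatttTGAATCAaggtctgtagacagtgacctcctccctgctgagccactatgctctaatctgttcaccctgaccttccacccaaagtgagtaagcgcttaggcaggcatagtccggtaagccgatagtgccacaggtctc
The stretches lie, in the same order, at chr3:95318592-95318829 on the plus strand, chr19:29367188-29367437 on the plus strand, chr3:96058456-96058568 on the minus strand, chr7:99465898-99466003 on the plus strand, chr7:83794840-83795025 on the minus strand, chr11:97352357-97352606 on the minus strand, chr7:141010745-141010994 on the minus strand and chr13:83573426-83573605 on the plus strand.

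The start of Cers2, which makes ceramides with very long acyl chains, had a DCA ATAC peak of 2.32-fold over background with a −log10 p of 9.85. Its acetylation in DCA was 3.01-fold for H3K9ac and 6.43-fold for H3K27ac, and its stretch held the E-box CAGCTG. Cd274 encodes the immune checkpoint ligand PD-L1. Its ATAC peak was 2.43-fold, its H3K9ac peak 4.94-fold and its H3K27ac peak 4.50-fold, and the GC box GGGCGGG lay near the start. Vps45, a protein of vesicle fusion, had folds of 2.32, 4.14 and 4.23 for the same readouts. At Ifitm3, an interferon-induced antiviral membrane protein, the ATAC peak was 1.83-fold and the acetylation peaks 6.70-fold (H3K9ac) and 5.98-fold (H3K27ac). The open regions at all 4 of these starts also overlapped a peak in every acetylation list of Sham, SNA and Lam.

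The start of Klhl35, of the kelch-like family, had an ATAC peak of 1.96-fold and an H3K9ac peak of 3.52-fold. That of Cfap161, a cilium protein, had 2.06-fold and 3.04-fold. The start of Gpr179, known from retinal bipolar cells, had 1.87-fold by ATAC, 4.47-fold for H3K9ac and 4.82-fold for H3K27ac. A start of Mef2c, a transcription factor, had 1.86-fold by ATAC and 3.12-fold for H3K9ac. None of the open regions at these 4 starts overlapped an acetylation peak in the other 6 lists. In 54 windows outside chromosome 18 a region reached before the start. For 12 of them the region had acetylation in all 6 other lists, and for 8 in none.

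Motif letters were searched on both strands of the whole windows. For AP-1 the letters TGANTCA were searched, with any base at N. The usual site of Jun and Fos family factors has C or G there, while the matches printed for Ifitm3 and Mef2c have T and A. These counts thus take in more than that site, and a match can lie outside the part of the window that a region covers. The letters were in 8 of the 56 windows met (14.3%) and in 4 of the 48 met by the Lam-only regions (8.33%). They were in 4.22% of the 12306 windows met by regions open in all 4 lists, and in 6.99% of all windows. The E-box CAGCTG was in 14 of 56 (25.0%), against 27.1% for the Lam-only regions and 15.6% of all windows. The GC box GGGCGGG was in 10 of 56 (17.9%), against 18.8%, 51.1% of windows open in all 4 lists and 33.9% of all windows. The ETS letters CCGGAAGT and the NRF1 motif were in none of the windows of either set, and in 5.15% and 1.33% of all windows. The median GC content was 54.7% in the windows met by DCA-only regions, 54.2% for Lam-only regions and 62.3% for regions open in all 4 lists. The windows of the DCA-only and Lam-only sets thus resembled each other in GC content and GC boxes, and both held fewer GC boxes than constantly open starts. Counts this small leave wide intervals, and a match is only a run of letters.

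The DCA-only open regions, before acetylation was asked for, numbered 55231, or 15.0% of all merged regions, and 52905 (14.4%) were Lam-only. Regions found in 1 list alone made up 59.7% of the merged set. Of the DCA-only open regions 8.5% were acetylated in DCA, with a 95% Wilson interval of 8.27% to 8.74%. Of the Lam-only open regions 6.77% were acetylated in Lam (6.56% to 6.99%), and the values were 8.13% for SNA-only and 4.88% for Sham-only regions in their own lists. Of all merged regions open in DCA 22.1% were acetylated in DCA, and of those open in Lam 18.7% in Lam. The 36917 regions open in all 4 lists were acetylated in 52.6% of cases in DCA and 46.5% in Lam. With the lists of each assay cut to equal size the DCA and Lam shares were 5.68% and 5.49%. For H3K27ac alone the order turned, at 2.85% and 5.54% in the whole lists and 2.72% and 3.78% at equal size. All intervals cover counting error only, and regions are not replicates.

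Each open region was then compared with one and the same acetylation list. The DCA lists placed H3K9ac or H3K27ac at 8.5% of the DCA-only open regions and at 9.09% (8.85% to 9.34%) of the Lam-only ones, which have no ATAC peak in DCA. DCA H3K9ac alone lay at 7.50% of DCA-only and 8.11% of Lam-only open regions, a ratio of 0.925. The same ratio was 0.911 in the Sham, 0.925 in the SNA and 0.927 in the Lam H3K9ac list. For H3K27ac it was 0.942 in DCA, and 0.880, 0.941 and 0.930 in Sham, SNA and Lam. Acetylation after DCA therefore did not lie more often where chromatin was listed as open after DCA than where it was listed as open after Lam. The order turned when the open regions were limited to strong ATAC peaks (−log10 q of 5 or more), a choice made after seeing the data, with the other ATAC lists whole: DCA H3K9ac then lay at 10.3% of 1905 DCA-only and 8.86% of 1061 Lam-only regions. The Lam H3K9ac list had the same order there, at 4.67% and 3.49%. The order did not turn for DCA H3K9ac with that limit on every list (11.5% and 12.0%) or at equal list sizes (4.41% and 4.96%).

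**Figure D1:**
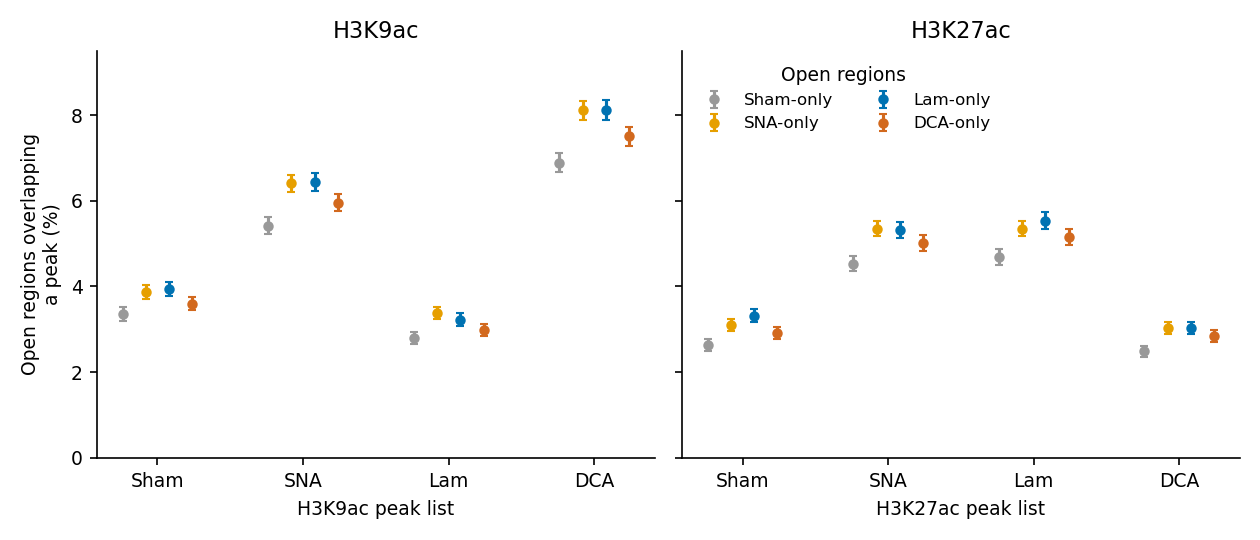
Percent of the open regions found in 1 ATAC list alone (colours; DCA-only n = 55231, Lam-only n = 52905, SNA-only n = 59187, Sham-only n = 52684) that overlap a peak of each acetylation list (x axis); bars are 95% Wilson intervals for counting error. The 4 sets keep much the same order in every list, and the height follows the list, for example 7.50% of DCA-only regions in the DCA H3K9ac list and 2.99% in the Lam H3K9ac list.

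On 19 of the 20 chromosomes 1 to 19 and X, the share of DCA-only open regions acetylated in DCA exceeded that of Lam-only regions acetylated in Lam. Chromosome 18 was the exception. Each set was read in its own lists, and the DCA H3K9ac list was 1.77 times as long as the Lam one. All chromosomes come from the same pooled lists and are not replicates. Read in the DCA lists alone, the shares over all chromosomes were 8.50% of DCA-only and 9.09% of Lam-only open regions. Chromosome 19 had 172 of the regions, where 13.0% of DCA-only open regions were acetylated against 9.42% of Lam-only ones. Chromosome 11 held the most, 439 regions, with 12.8% against 10.5%. The X chromosome held 13 regions among 47 DCA-only open ones.

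By mark, 3123 of the 4697 regions (66.5%) carried H3K9ac alone, 553 (11.8%) H3K27ac alone and 1021 (21.7%) both. The Lam-only acetylated regions were made up the other way round, with 652 (18.2%) H3K9ac alone, 1875 (52.4%) H3K27ac alone and 1054 (29.4%) both. The lists of each assay, ATAC included, were also cut to equal size, which left 52242 DCA-only and 53487 Lam-only open regions. H3K9ac then lay at 4.41% and H3K27ac at 2.72% of the DCA-only open regions in DCA. In Lam they lay at 3.30% and 3.78% of the Lam-only ones. The leading mark was thus the same in each set at equal list sizes, with a smaller gap than the 7.50% and 2.85%, or 3.22% and 5.54%, of the whole lists. The lead went with the list and not with the set of regions. In the DCA lists H3K9ac also led at the Lam-only open regions, at 8.11% against 3.03% for H3K27ac. In the Lam lists H3K27ac also led at the DCA-only open regions, at 5.15% against 2.99% for H3K9ac.

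Acetylation in the lists of the other surgeries took no part in choosing the regions. H3K9ac or H3K27ac was listed at the same place in Lam for 2516 regions, or 53.6% (52.1% to 55.0%), in SNA for 2835 (60.4%) and in Sham for 2187 (46.6%). At least 1 of the 6 other lists had a peak at 3506 regions (74.6%), all 6 at 327 (6.96%), and none at 1191 (25.4%). For the Lam-only acetylated regions, 72.3% (70.8% to 73.7%) had acetylation in DCA, 87.5% had it in at least 1 other list and 447 (12.5%) in none. The 6 other lists are not the same for both sets. Only those of the Lam-only set include the DCA H3K9ac list, of 89647 peaks against 50667 in Lam. Of the 4144 DCA-only regions with H3K9ac in DCA, with or without H3K27ac, 30.5% had H3K9ac in Lam. Of the 1706 Lam-only regions with H3K9ac in Lam, 77.4% had it in DCA. For the 1574 DCA-only and 2929 Lam-only regions with H3K27ac, the values for that mark were 68.7% and 38.9%. Of the 1021 regions with both marks in DCA only 33 (3.23%) had no acetylation elsewhere, against 1007 (32.2%) of those with H3K9ac alone and 151 (27.3%) of those with H3K27ac alone. Most of the 4697 regions were thus listed as acetylated after another surgery too. Of all 55231 DCA-only open regions, 5.33% carried either mark in Sham, 7.58% in SNA and 6.29% in Lam.

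**Figure D2:**
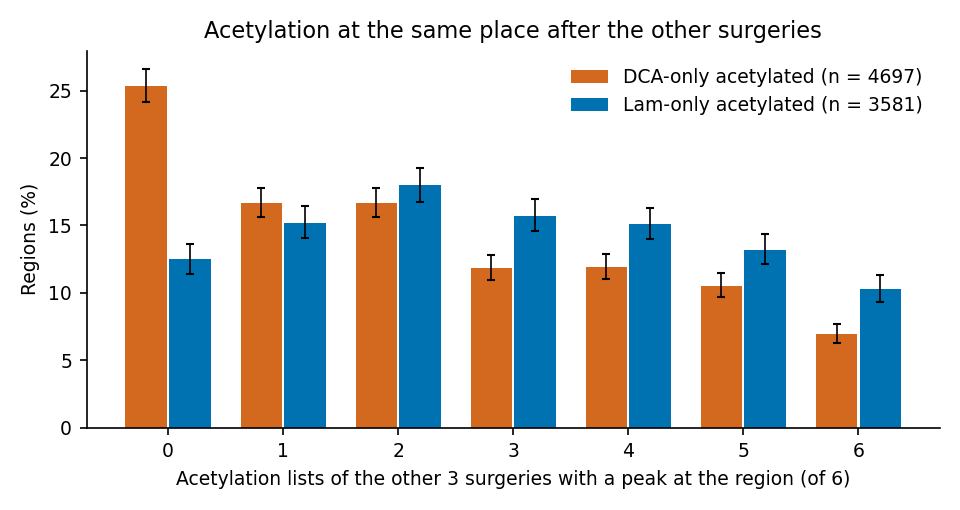
Percent of the 4697 DCA-only (orange) and 3581 Lam-only (blue) acetylated open regions by the number of H3K9ac and H3K27ac lists of the other 3 surgeries, out of 6, with a peak at the region; bars are 95% Wilson intervals. No other list had a peak at 25.4% of the DCA-only and 12.5% of the Lam-only regions, and all 6 had one at 6.96% and 10.3%. The 6 lists differ between the sets, and only those of the Lam-only set include the long DCA H3K9ac list.

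H3K27me3 was not used by the rule either. Its lists held weak intervals, with a median fold of 1.18 in DCA and 1.19 in Lam, and only 43 of 90011 DCA and 916 of 154055 Lam peaks had q of 0.05 or below. The overlaps that follow are therefore with listed intervals, most of which do not pass that limit. The DCA H3K27me3 list, whose 90011 peaks were fewer than those of the other surgeries, covered 41 of the regions (0.873%, 0.644% to 1.18%), and 7.91% of DCA-only open regions without acetylation. The Lam H3K27me3 list covered 7.54% of the Lam-only acetylated regions and 22.3% of the Lam-only open regions without acetylation. Read in that same Lam list, the DCA-only acetylated regions had 8.22%, and read in the DCA list the Lam-only acetylated ones had 0.698%. In its own list each set thus met these intervals less often than its unacetylated counterpart, and within 1 list the DCA-only and Lam-only sets had close shares.

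The ATAC peaks of the regions were weak, as the fold enrichment that the authors' caller gave shows. It ranged from 1.38 to 3.15 with a median of 1.86, and the median −log10 p was 4.21. A pile-up at the summit was solved from fold and p under an assumed model. Fold was taken as pile-up over background with a constant added to each, and p as a Poisson upper tail. A solution was found for all 4697 regions, with a median of 41 (30 to 96) over an expected background of 20.0. The caller is not named in the sources used here, so these are values under that model and not counted reads. A −log10 q of at least 5 was reached by 216 regions (4.60%), against 16.3% of the whole DCA ATAC list. In the Lam-only acetylated set 69 regions (1.93%) reached it, against 13.2% of the Lam list. Regions open in all 4 lists had a median DCA fold of 2.32, a median −log10 p of 7.71 and a median width of 766 bp, where the DCA-only acetylated regions had a width of 369 bp. The rule keeps peaks that the other ATAC lists lack, which favours weak and narrow ones. These gaps are therefore partly built in, and no conclusion is drawn from them.

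**Figure D3:**
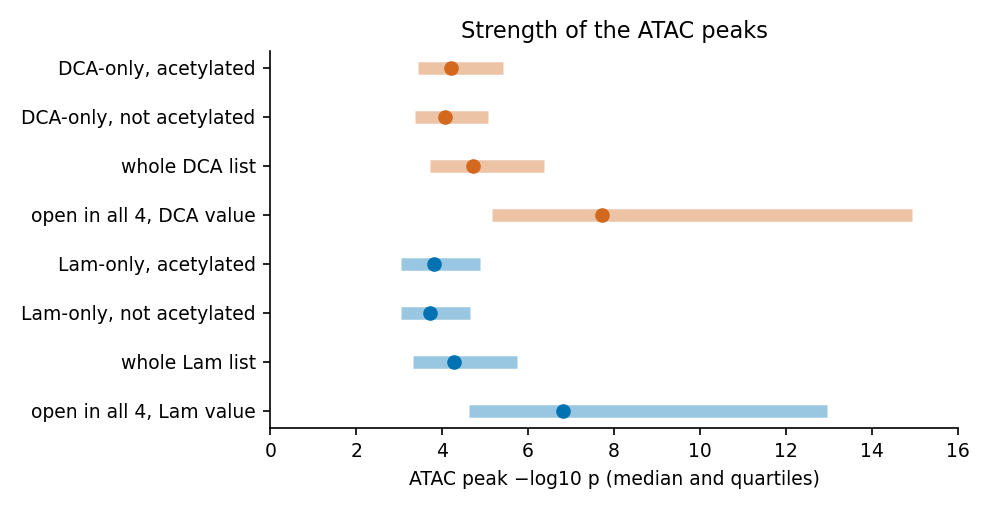
Median (point) and quartiles (bar) of the −log10 p of ATAC peaks, as the authors' caller gave it, for the DCA list (orange) and the Lam list (blue). The DCA-only acetylated regions have a median of 4.21 and the regions open in all 4 lists one of 7.71, while acetylated and unacetylated DCA-only regions lie close together.

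The acetylation peaks that the regions met were of ordinary strength. The H3K9ac peak had a median −log10 p of 7.20, where the whole DCA H3K9ac list had 7.0, and the H3K27ac peak 7.18, where its list had 7.26. Their median width was 608 bp for H3K9ac and 542 bp for H3K27ac, against 532 bp and 472 bp in the lists, and a wider peak is met more often under an overlap rule. Few of these peaks also spanned a constantly open region. This held for 360 of 4080 H3K9ac peaks (8.82%), against 26.3% of all peaks in that list. For H3K27ac it held for 172 of 1557 peaks (11.0%), against 33.9%. The Lam-only acetylated set had the same order in the Lam lists, at 7.80% against 38.4% for H3K9ac and 12.1% against 30.5% for H3K27ac. Every peak counted in either set was chosen for meeting a region that by the rule is not constantly open. A low share is therefore partly built in, and no conclusion is drawn from the gap to the whole lists.

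At the edge of the rule, 37 regions overlapped acetylation by under 10 bp and 28 DCA-only open regions missed it by under 10 bp. The smallest overlaps, of 1 bp, were at chr13:42150857-42151412 in Hivep1 and chr15:75942157-75942696 in Zfp623, whose ATAC folds were 1.70 and 1.73. Just outside lay chr11:3761381-3761673 and chr11:59201133-59201457, which abutted an acetylation peak and had folds of 1.83 and 2.02. Wholly inside acetylation lay 1946 regions (41.4%).

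Most regions lay away from gene ends. Within 1 kb of an end of a protein-coding gene were 385 (8.20%, 7.45% to 9.02%), elsewhere inside a gene 3115 (66.3%) and between genes 1197 (25.5%). The Lam-only acetylated regions had 8.52%, 66.0% and 25.5%. Of the DCA-only open regions without acetylation 3.57% were at a gene end, and of the whole DCA ATAC list 12.4%. With a −log10 q of at least 5 asked of every list the gene end shares were 18.5% and 20.0%, and with a window of 5 kb 23.3% and 24.6%. The gene table gives neither strand nor exons, so starts, ends, exons and introns were not told apart here.

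Neighbouring open chromatin of other surgeries was common. Within 1 kb of an ATAC peak of Sham, SNA or Lam lay 2669 regions (56.8%, 55.4% to 58.2%), at a median distance of 812 bp. For the Lam-only acetylated regions and the peaks of the other surgeries the share was 60.4% and the median 703 bp, and for DCA-only open regions without acetylation it was 37.0%. Another DCA-only acetylated region lay within 10 kb of 1213 regions (25.8%).

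**Figure D4:**
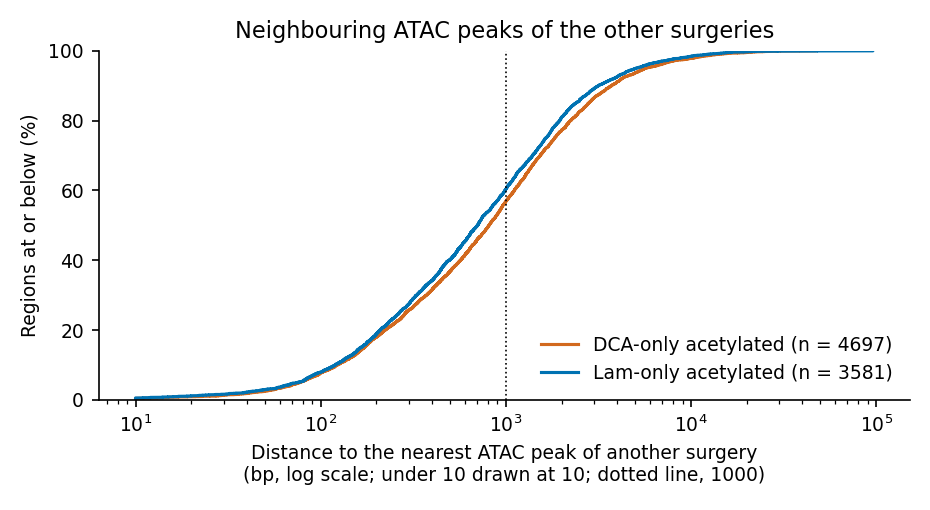
Cumulative percent of DCA-only (orange) and Lam-only (blue) acetylated open regions by the distance in bp (log scale) to the nearest ATAC peak of another surgery. The curves run close together, and 56.8% and 60.4% lie within 1 kb (dotted line).

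The 10 regions with the strongest DCA ATAC peaks were named by the nearest protein-coding gene, which says where they lie and not what they act on. The strongest was at a gene end of Nmt1, which attaches myristate to proteins, at chr11:103067041-103068016. Its ATAC fold was 2.62, its −log10 p 14.6 and its solved pile-up 84 over 31.5 expected. Its H3K9ac fold was 2.49 in DCA, 2.79 in SNA and 3.20 in Sham, with no peak listed in Lam. Next came chr2:45041975-45042513 in Zeb2, a transcription factor of neural crest and glia, with a fold of 3.15. Near Sox2, a transcription factor found in satellite glia, chr3:34634395-34635101 had a fold of 3.04 and lay 14893 bp from the gene. Its H3K27ac fold was 13.6 in DCA, 18.4 in Sham, 11.4 in Lam and 3.34 in SNA, and its H3K9ac, of 3.22, was listed in DCA alone.

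A region 4030 bp from Nr4a1, an immediate early nuclear receptor, at chr15:101278826-101279178, had an ATAC fold of 2.69. H3K9ac there was 4.39-fold in DCA, 6.82-fold in SNA and 3.88-fold in Sham, and H3K27ac was listed in all 4 surgeries, at 4.11-fold in DCA, 7.18-fold in SNA, 4.27-fold in Lam and 3.08-fold in Sham. Folds belong to their own list and its background, so they are set side by side without a comparison between surgeries. The other 6 lay at or near Amotl2, Anxa6, Phf10 (a subunit of the BAF chromatin remodelling complex), AU040320, Lpin1 and Sqstm1, which encodes the autophagy receptor p62. Among these 10 regions 9 had an ATAC peak of another surgery within 1 kb, and 8 had acetylation in at least 3 of the 6 other lists.

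Among the 10 regions with the strongest DCA H3K9ac the fold ranged from 7.58 to 10.7. Hhat, which palmitoylates hedgehog proteins, led with 10.7 at chr1:192771540-192771740, and the same place had 3.82 in Lam, 2.09 in Sham and no H3K9ac peak in SNA. At chr7:70358106-70358463 in Nr2f2, the nuclear receptor COUP-TFII, H3K9ac was 9.32-fold in DCA, 3.08-fold in Lam, 2.24-fold in SNA and 4.11-fold in Sham. The others were at or near Prrc2b, Nsmaf, Sspn, Pogz, Mras, Gm52006, Faf2 and Hddc3. H3K9ac peaks were listed at 9 of these 10 places in Lam and at 7 in each of SNA and Sham, and their medians there were 4.02, 3.55 and 4.15.

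The 10 regions with the strongest DCA H3K27ac ranged from 16.5-fold to 40.0-fold. At chr9:72640995-72641412 near Rfx7, a transcription factor, H3K27ac was 40.0-fold in DCA, 38.4-fold in Sham, 25.5-fold in Lam and 5.73-fold in SNA. At chr11:98740431-98740915 by Thra, the thyroid hormone receptor alpha, it was 26.96-fold, 21.1-fold, 14.2-fold and 4.58-fold in the same order. Over the 10 regions Sham had a peak at 9 with a median of 25.3, Lam at 10 with a median of 18.5 and SNA at 7 with a median of 4.91. In SNA the highest fold was 6.18, and these folds too are not compared between surgeries. The whole H3K27ac lists had median folds of 4.30 in Sham, 4.16 in Lam and 3.91 in SNA. At most of these places H3K27ac was thus listed well above the list median in Sham and Lam. An exception was chr1:106637371-106637594 in Bcl2, the inhibitor of apoptosis, with 18.7-fold in DCA, 3.38-fold in Lam and no H3K27ac peak in Sham or SNA. Cttnbp2nl, Smurf1, Itpkb, Xpo1, Syn3 and Rps6 were among the genes at the other places.

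At gene ends the strongest ATAC peaks after Nmt1 and Phf10 included Akr1b8, an aldo-keto reductase, at chr6:34368731-34369337. Its ATAC fold was 2.89 and its H3K9ac fold 3.27 in DCA, no other acetylation list had a peak, and the nearest ATAC peak of another surgery was 13630 bp away. Gpr182, a receptor of endothelial cells, had 2.33 and 3.25 at chr10:127749001-127749434, also with acetylation in DCA alone. Rpp25l, a relative of an RNase P subunit, had acetylation in all 6 other lists, with H3K9ac folds of 4.68 in DCA, 3.48 in Lam, 4.86 in SNA and 4.18 in Sham. Carmil3, a regulator of actin capping, had H3K27ac folds of 3.54 in DCA, 6.61 in Lam and 5.90 in SNA. Taf8, Trim7, H1f8 and Trps1 completed the 10, of which 5 had acetylation in at least 3 other lists.

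The strongest regions without acetylation in any other list were picked after their values were seen. Besides Akr1b8 they were chr1:162416645-162417134 in Dnm3, a dynamin of synapses, with an ATAC fold of 2.79, and regions at or near Shisa8 (2.35), Prss57 (2.32) and 2900026A02Rik (2.34). Their acetylation was H3K9ac alone, at 1.76-fold to 3.27-fold. In the Lam-only acetylated set the strongest ATAC peaks were at Anxa13 (2.87), Hapln4 (2.39) and Psma1 (2.91), in the range of the DCA-only ones.

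Of 21887 protein-coding genes, 3155 (14.4%) had a DCA-only acetylated open region in the gene or within 10 kb, and 2563 (11.7%) a Lam-only one. Gse1, Spata13 and Sh3pxd2a had the most, 10 regions each, where Lam had 3, 1 and 8. Sh3pxd2a is a scaffold of podosomes. Rxra, the retinoid X receptor alpha, had 9 regions in a gene of 86.9 kb, against 3 for Lam, and Ldlrad3 had 9 against 2. Prdm16 had 9 against 15. Genes with at least 5 regions numbered 87, and their median length of 233 kb was well above the 17.2 kb of all genes. Genes with many regions were thus mostly long ones. With chromosome 18 left out, a region overlapped 4 of 1005 microRNA hairpins (Mir345, Mir6976, Mir7001 and Mir7214), against 5 for Lam.

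Regeneration-associated genes, among them the injury-induced transcription factors and cytokine receptors, had a region at 7 of 40 genes (17.5%), and the Lam-only set also at 7 of 40. Igf1r, the receptor of insulin-like growth factor 1, had 4 regions against 1 for Lam, with ATAC folds from 1.62 to 2.18. The strongest, at chr7:68066087-68066290, had an H3K9ac fold of 3.57 in DCA and none in the other lists. Lifr, the receptor subunit for leukemia inhibitory factor, had 3 against 2. At chr15:7203413-7203855 beside it both marks were listed after all 4 surgeries, with H3K9ac folds of 5.14 in DCA, 4.03 in Lam, 3.10 in SNA and 4.64 in Sham. Creb1, Stat3, Cebpd, Flrt3 and Tnfrsf12a had 1 region each. Smad1, Klf7, Socs3 and Cap1 had a Lam-only region and no DCA-only one.

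Sensory neuron genes had a region at 4 of 24 (16.7%), and Lam at 3. Ntrk2, the receptor of brain-derived neurotrophic factor, had 3 regions against 0, with ATAC folds of 2.12, 2.06 and 2.01 and H3K9ac folds of 4.16, 3.80 and 2.90 in DCA. Genes of satellite glia and Schwann cells had one at 5 of 20 (25.0%) against 7 for Lam, and with 7.57 regions per Mb they had the highest density of the 10 lists, where Lam had 9.73. The region near Sox10, a transcription factor of glia, at chr15:79166060-79166441, had an ATAC fold of 1.88 and acetylation in all 6 other lists. Macrophage genes had one at 2 of 20 against 1, with the strongest in Itgam at 2.37-fold. Endothelial and fibroblast genes had one at 3 of 20 against 4, with the strongest near Col1a1 at 1.85-fold. With 20 to 24 genes in each of these lists the differences between DCA and Lam rest on 1 or 2 genes.

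Axon guidance genes had the highest share of the 10 lists, 9 of 24 (37.5%), where Lam had 7 (29.2%), but these are long genes, with a median of 187 kb. Per Mb of gene and flanks they held 1.70 regions, below the 3.24 of all protein-coding genes. Nrp2, a receptor of class 3 semaphorins, had 4 regions against 1. Its region at chr1:62721769-62722109 had an ATAC fold of 2.04 and both marks in all lists. Ion channel genes had 5 of 24 (20.8%) against 1 (4.17%), which rests on 6 regions against 1. Their median length was 173 kb, and they held 0.881 regions per Mb, also below all genes. They lay in the calcium channel genes Cacna1a, Cacna1c, Cacna1d and Cacna1h and in the sodium channel gene Scn8a, with ATAC folds from 1.53 to 2.16. Before acetylation was asked for, ion channel genes had 274 DCA-only and 301 Lam-only open regions.

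Synapse and adhesion genes had 4 of 24 against 5, with 3 regions at Ncam1, the neural cell adhesion molecule, of 1.60-fold to 1.91-fold. Cytoskeleton and transport genes had 5 of 24 against 8. Kif1b, a kinesin of axonal transport, had 4 regions against 1, Ank3, the ankyrin of the axon initial segment, 4 against 3, and Ank2 3 against 4. Genes of histone-modifying enzymes had 6 of 24 (25.0%) against 5. Hdac4, a class IIa histone deacetylase, had 5 regions against 2, with ATAC folds from 1.64 to 2.21. Kat2a and Kat2b, which encode the acetyltransferases GCN5 and PCAF, had 1 region each, as they did for Lam. Their H3K9ac folds were 4.42 and 3.86 in DCA. The Kat2a region, at chr11:100701806-100702247, lay in the flank of that gene and inside another protein-coding gene. Over the 10 lists the DCA-only set was ahead in 5, level in 1 and behind in 4, and it was ahead over all genes.

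**Figure D5:**
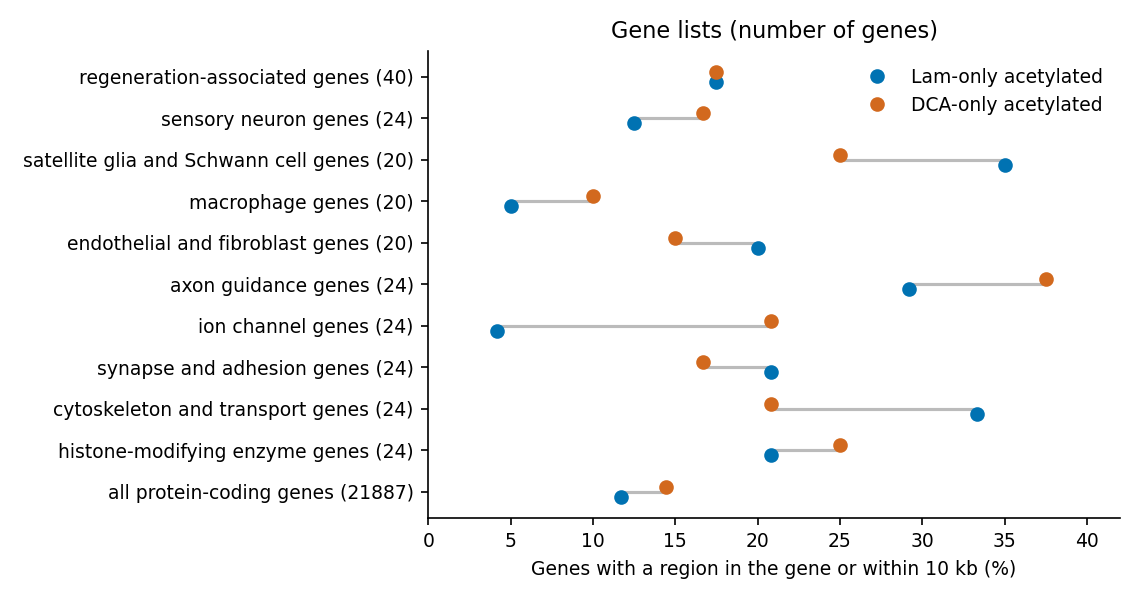
Percent of the genes of each list with a DCA-only (orange) or Lam-only (blue) acetylated open region in the gene or within 10 kb; the number of genes is in brackets. Axon guidance genes have 37.5% and 29.2%, ion channel genes 20.8% and 4.17%, and all protein-coding genes 14.4% and 11.7%.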

How the data were processed

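ATAC-seq and ChIP-seq of H3K9ac, H3K27ac and H3K27me3 in 60 samples (24 ChIP, 24 input, 12 ATAC) were reduced by the authors to 16 pooled peak lists, per the labels. Coordinates are mm10, per the submitters' processing notes; aligner, peak caller and settings are not given in the sources used here. The deposited display score was not used. Fold enrichment was deposited as a linear ratio to the background the authors estimated, and significance as −log10 p and −log10 q per peak. These were used to describe, rank or filter peaks of 1 list.

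With Python 3.11.15, numpy 2.4.6, pandas 2.3.3 and scipy 1.17.1, repeated ATAC intervals were collapsed to the strongest summit and the 4 ATAC lists merged at 1 bp. Region counts, overlaps, distances to protein-coding RefSeq genes (GRCm38.p6) and 95% Wilson intervals followed, and figures were drawn with matplotlib 3.10.9. The pile-up was solved from fold and p under the assumed model, and all solutions met both within 0.003. Interval code was tested on simulated lists. Named regions are the 10 strongest by ATAC, H3K9ac, H3K27ac and ATAC at gene ends, the 5 genes with most regions (ties in file order), list genes with at least 3 regions or otherwise the strongest of the list, and the 3 strongest Lam-only ones; other names were chosen after their values were seen. None on chromosome 18 is named. One region that the rule picks is not reported here by name. The regions and gene lists were chosen with earlier results of these data known. Depth is unknown beyond the pile-up.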

Additional observations from a re-analysis of the deposited data

How the results depend on the processing

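No paired analysis was possible because each list pools its replicates and carries no replicate columns, and for the same reason no replicate could be left out. The DCA-only and Lam-only counts of 4697 and 3581 acetylated open regions were 1014 and 395 where every list was limited to −log10 q of 5 or more, to 1905 and 1328 with ATAC peaks within 1 kb merged, and to 216 and 69 when only the region's own ATAC peak had to reach that q, a choice made after seeing the data. The DCA-only count was 2968 with equal list sizes and 1574 for H3K27ac alone, and the Lam-only count 1706 for H3K9ac alone.

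The acetylated shares of the DCA-only and Lam-only open regions were 12.4% and 8.55% at the q limit in every list, 5.68% and 5.49% at equal list sizes, 5.97% and 4.61% with peaks merged, 6.76% and 5.20% with at least 50% of the region acetylated, 7.50% and 3.22% for H3K9ac alone, 2.85% and 5.54% for H3K27ac alone, and 11.3% and 6.50% with a strong own peak. With q of at most 0.05 the DCA-only share was 8.96%. DCA-only stayed ahead under each of these but H3K27ac alone.

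DCA-only regions with acetylation in Lam, and Lam-only regions with acetylation in DCA, made up 52.1% and 81.3% at the q limit in every list, 58.5% and 66.3% at equal list sizes, 49.3% and 69.7% with peaks merged, 50.0% and 69.3% with 50% covered, 30.5% and 77.4% when H3K9ac alone was read, 68.7% and 38.9% when H3K27ac alone was, and 57.9% and 81.2% with a strong own peak. With q of at most 0.05 the Lam-only value was 73.8%. The DCA-only value was the lower except for H3K27ac.

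Gene end shares were 18.5% and 20.0% at the q limit in every list, 4.78% and 4.29% with peaks merged, and 23.3% and 24.6% in a 5 kb window. The DCA-only share was 9.06% at equal list sizes and 9.85% for H3K27ac, and the Lam-only share 9.61% for H3K9ac and 13.0% with a strong own peak. H3K27me3 covered 0% of either set at the q limit in every list and 0% and 0.0371% with q of at most 0.05. These lists were nearly empty, with 1 DCA and 76 Lam peaks at the first limit and 43 and 916 at the second, so the zeros say nothing of the regions. It covered 4.36% of the Lam-only set at equal list sizes and 1.45% with a strong own peak. Beyond what the settings themselves remove, the cause was not tested.

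Signal below the authors' threshold is not in the lists, and the DCA ATAC list went down to a −log10 p of 2.35, where the regions had a median of 4.21. Of 82 recomputed values 27 lay within the interval of the reported one, or within 1.5 times of a count.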
